A study of Mus musculus with 6 samples.

Results

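The ephrins and their Eph receptors, the Slits and their Robo receptors, and the netrins with the receptors Dcc and Unc5 were examined in cultured mouse cerebellar granule neurons (CGNs) given GSK-126, a small molecule that inhibits the histone methyltransferase EZH2. The members are every gene named Efna, Efnb, Epha, Ephb, Slit, Robo, Ntn, Ntng, Unc5 or Dcc with its family number or letter. The rule uses the gene symbol only, but the set was chosen with earlier results of these data known. Of the 55341 genes in the count tables, 40 carried such a symbol. They are 5 ephrin-A, 3 ephrin-B, 9 EphA, 5 EphB, 3 Slit, 4 Robo, 4 netrin, 2 netrin-G and 5 Unc5 or Dcc genes. RNA was sequenced from 3 libraries given the vehicle DMSO and 3 given GSK-126. Both groups were CGNs from cerebella of CD1-IGS mice of both sexes at P6-P8, plated as granule neuron progenitors purified on Percoll, and both received the antimitotic AraC at DIV2 (days in vitro 2). GSK-126 or DMSO was added once at DIV3 and RNA was taken at DIV5, and the dose of GSK-126 for this experiment was not given in the sources used here. A replicate is a culture from pooled litters, so no value belongs to a single animal. The labels name the tissue as cerebellum and the day as DIV3, the day on which the compound was added.

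Ephrins are cell-surface ligands of the Eph receptor tyrosine kinases, ephrin-As held by a lipid anchor and ephrin-Bs spanning the membrane, and contact between a ligand and a receptor on neighboring cells can signal in both directions, often as repulsion. Slits are secreted proteins that repel growing axons and migrating neurons through Robo receptors, and netrin-1 is a secreted cue that attracts through Dcc and repels through Unc5 receptors. In the cerebellum such cues guide granule neurons as they leave the external granule layer and extend parallel fibers, and loss of Unc5c misplaces granule cells beyond the cerebellar border. EZH2 places the repressive mark H3K27me3, which is found at promoters rich in CG dinucleotides as well as over gene bodies and between genes.

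With GSK-126, 4 of the 35 members that could be tested changed. The receptor genes Unc5a and Ephb2 fell, and the receptor gene Epha4 and Ntng2, which encodes the membrane-anchored protein netrin-G2, rose. The 4 changes ran from -0.54 to 0.56 on the log2 scale. The other 31 tested members did not pass the test, among them both tested Slits, both tested Robos, all 8 ephrins and netrin-1. A gene was called at a Benjamini-Hochberg adjusted p under 0.05 over all 16729 genes tested, in edgeR's quasi-likelihood test of the counts with the replicate number as a block. The 4 calls are 11.4% of the tested members, where 8.44% of all tested genes were called, 3.35% higher and 5.09% lower. All 4 calls rest on comparing libraries with the same replicate number. Without that block edgeR called none of the 35 members and none of the 16729 genes, with an adjusted p of 0.953 for each of the 4 genes, and 2 members and 665 genes had an unadjusted p under 0.05. DESeq2 with the block, which called 7.71% of its genes, kept Unc5a and Ephb2 and did not call Epha4 or Ntng2.

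Counts on genes ranged from 7407189 to 13092763 per library, and the members took 12611 to 22585 of them, so precision was limited mainly for members under 10 CPM (counts scaled to library size, here with TMM factors). Libraries with the same replicate number deviated together from their group means. Replicate 2 of both groups stood apart for many members, since 14 of 35 (40%) were highest in replicate 2 of both groups and 5 (14.3%) lowest, beside 26.6% and 24.2% of all tested genes. The 14 were Efna2, Efnb2, Epha1, Epha5, Epha7, Epha10, Ephb1, Ephb2, Ntn4, Ntng1, Robo2, Slit3, Unc5a and Unc5b. Each call is therefore given without replicate 2 as well. Ezh2, whose protein GSK-126 inhibits, was at 36.5 ± 6.97 CPM (SD, n = 3) with DMSO against 33.6 ± 7.82 CPM (SD, n = 3) with GSK-126 and was not called (edgeR adjusted p = 0.563); a level of its RNA does not measure inhibition of the enzyme.

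The 250 bases before the RefSeq start of 3 of the called genes are printed to show the promoters of genes that changed (RefSeq, GRCm38.p6), because the mark that EZH2 places is known at CG-rich promoters, among other regions. They are written 5′ to 3′ along each gene's strand, at chr13:54949161-54949410 on the plus strand for Unc5a, chr4:136836013-136836262 on the minus strand for Ephb2 and chr1:77515089-77515338 on the minus strand for Epha4. Capitals mark each CG, which reads the same on both strands and cannot overlap itself.
Unc5a: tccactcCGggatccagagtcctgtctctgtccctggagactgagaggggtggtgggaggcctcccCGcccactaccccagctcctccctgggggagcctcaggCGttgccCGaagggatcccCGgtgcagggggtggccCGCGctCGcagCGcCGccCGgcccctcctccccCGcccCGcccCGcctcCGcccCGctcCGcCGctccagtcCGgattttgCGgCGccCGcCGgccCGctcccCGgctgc
Ephb2: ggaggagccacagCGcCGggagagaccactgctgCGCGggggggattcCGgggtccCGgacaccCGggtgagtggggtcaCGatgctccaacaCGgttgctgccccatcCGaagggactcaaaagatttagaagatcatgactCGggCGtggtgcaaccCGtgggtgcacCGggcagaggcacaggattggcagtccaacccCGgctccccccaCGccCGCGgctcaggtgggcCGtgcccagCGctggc
Epha4: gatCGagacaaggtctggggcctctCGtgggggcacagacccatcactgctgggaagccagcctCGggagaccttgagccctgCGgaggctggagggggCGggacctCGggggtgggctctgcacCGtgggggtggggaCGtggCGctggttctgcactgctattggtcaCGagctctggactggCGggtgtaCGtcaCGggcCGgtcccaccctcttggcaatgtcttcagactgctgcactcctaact

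The window of Unc5a held 25 CG, that of Ephb2 20 and that of Epha4 14. Of the 32851 windows in the table, 10.7% held at least as many as Unc5a, 17.9% as many as Ephb2 and 29.4% as many as Epha4. The window of Ntng2 held 4 CG, a number that 62.2% of windows reached, and it is not printed because its RefSeq start lies 4906 bp inside the longer Gencode gene and the window overlaps exons. In 40 windows of 35 members the median was 16.5 CG, from 2 to 46, beside a median of 6 over all windows, and the highest was a window of Epha8. A count of letters is no measure of H3K27me3 in these cultures.

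The plot of levels shows every tested member in each library. Levels are compared between genes only as CPM per kilobase of all annotated exons, which reads low for genes with long untranslated ends. By that measure Unc5b stood highest of the members, followed by Ephb1 and Ntn4.

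**Figure D1:**
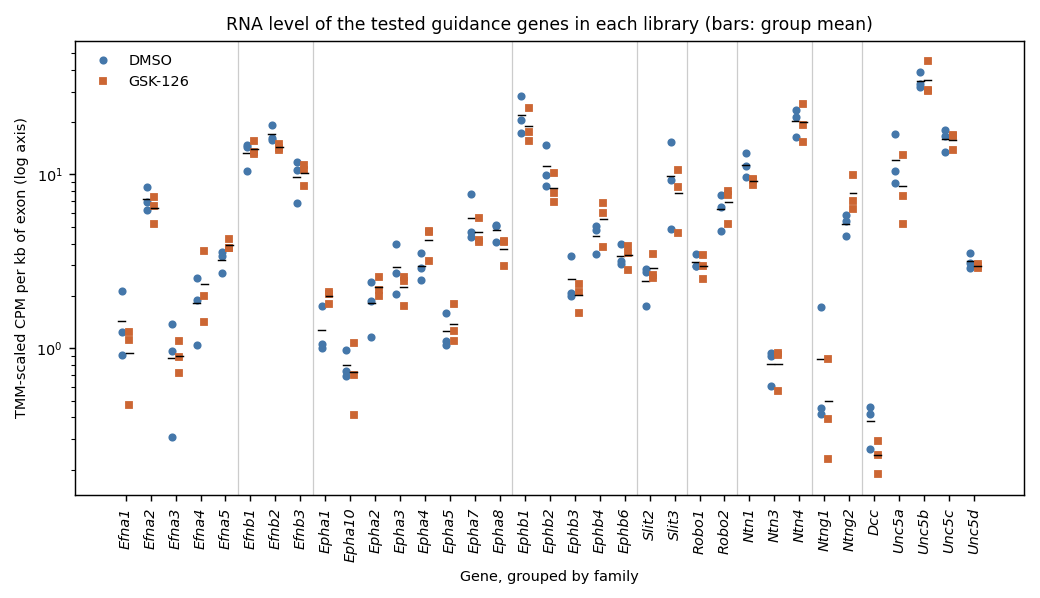
TMM-scaled CPM per kilobase of exon of each tested member on a log axis, grouped by family, with blue circles for DMSO libraries, orange squares for GSK-126 libraries and bars for the group means. Unc5b stood highest, at a mean of 34.9 CPM per kilobase, Dcc was among the lowest, and the points of both groups overlapped for all but 5 of the 35 members.

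Among the netrin receptors, Unc5a (ENSMUSG00000025876.15, GRCm38 chr13:54949411-55006018, plus strand), a receptor for netrin-1 that mediates repulsion, stood at 37.1, 71.1 and 43.6 CPM in DMSO replicates 1, 2 and 3 and at 21.5, 54.2 and 31.3 CPM in the GSK-126 replicates. Each GSK-126 library was below the DMSO library of its number, although the groups overlapped because replicate 2 was high in both. The means were 50.6 ± 18.1 CPM (SD, n = 3) with DMSO against 35.6 ± 16.8 CPM (SD, n = 3) with GSK-126. Unc5a fell by 0.54 on the log2 scale (SE 0.11, edgeR adjusted p = 0.00348), and the log2 ratios within pairs 1, 2 and 3 were -0.79, -0.39 and -0.48. Leaving out both libraries of replicate 1 gave a log2 fold change of -0.42 with an adjusted p of 0.0608 (edgeR), and leaving out those of replicate 2 gave -0.63 with 0.0166. DESeq2 with the block gave an adjusted p of 0.0119. Of the exons, 34 bp overlap Hk3 on the opposite strand, and since the strand setting of the counting was not given, reads there cannot be told apart.

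The other Unc5 genes and Dcc did not pass the test. Unc5b, the member with the highest level per length (34.9 CPM per kilobase), was at 198.8, 243.3 and 207.7 CPM with DMSO against 187.9, 280.0 and 191.5 CPM with GSK-126, and its log2 fold change was 0.0033 (edgeR adjusted p = 0.987). Unc5c had 258.3, 345.1 and 319.3 CPM with DMSO against 263.4, 319.2 and 322.0 CPM with GSK-126. These were the highest CPM of any member before scaling to exon length, and per kilobase it stood at 15.9 CPM. Its log2 fold change was -0.024 (SE 0.071). Both fold changes are close to 0, and that of Unc5c turned sign under other scalings. Unc5d, the remaining family member, had a log2 fold change of -0.092. Dcc, the receptor through which netrin-1 attracts, was low at 3.46, 6.06 and 5.47 CPM with DMSO against 3.18, 2.48 and 3.87 CPM with GSK-126. Its GSK-126 libraries were lower in all 3 pairs and the groups overlapped, with a log2 fold change of -0.63 (SE 0.31, edgeR adjusted p = 0.251) that was -0.31 without replicate 2.

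Among the EphB receptors, Ephb2 (ENSMUSG00000028664.14, GRCm38 chr4:136647539-136835988, minus strand), a receptor of ephrin-Bs that is also known at excitatory synapses, had 108.5, 186.4 and 125.5 CPM in DMSO replicates 1 to 3 and 98.5, 128.7 and 87.8 CPM in the GSK-126 replicates. The GSK-126 library was the lower one in every pair, by least in pair 1, and the groups overlapped. The means were 140.1 ± 40.9 CPM (SD, n = 3) with DMSO against 105.0 ± 21.2 CPM (SD, n = 3) with GSK-126. Ephb2 fell by 0.40 on the log2 scale (SE 0.087, edgeR adjusted p = 0.00578), with log2 ratios of -0.14, -0.53 and -0.52 within pairs 1 to 3. Without replicate 2 the log2 fold change was -0.32 and the adjusted p was 0.0712 (edgeR), and DESeq2 with the block gave an adjusted p of 0.0081. No annotated exon on the opposite strand overlaps it.

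Ephb1, the EphB gene with the highest level per length (20.5 CPM per kilobase), had 120.9, 197.6 and 145.0 CPM with DMSO against 108.5, 168.1 and 122.2 CPM with GSK-126. It was lower with GSK-126 in all 3 pairs by similar amounts (-0.16, -0.23 and -0.25 on the log2 scale), and it did not pass the test (log2 fold change -0.21, SE 0.075, edgeR adjusted p = 0.0944). Of its exons, 152 bp overlap Gm26846 on the opposite strand. Ephb4, known for its part in the vascular endothelium, was fitted the other way, with 22.1, 16.1 and 23.4 CPM in the DMSO libraries against 31.6, 17.7 and 27.9 CPM with GSK-126 and an edgeR adjusted p of 0.196. Ephb3 and Ephb6, the latter a receptor without kinase activity, had log2 fold changes of -0.29 and 0.0064. The 5 EphB genes together summed to 280.4, 434.6 and 318.6 CPM with DMSO and to 267.3, 338.4 and 264.1 CPM with GSK-126, so that the sum was lower in every pair while the groups overlapped. Ephb1 and Ephb2 held most of that sum.

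Among the EphA receptors, Epha4 (ENSMUSG00000026235.14, GRCm38 chr1:77367185-77515088, minus strand), which binds ephrins of both classes, had 23.3, 19.9 and 28.6 CPM in DMSO replicates 1 to 3 and 37.4, 25.7 and 38.2 CPM in the GSK-126 replicates. It was higher with GSK-126 in every pair, and the groups overlapped since GSK-126 replicate 2 lay below DMSO replicate 3. The means were 23.9 ± 4.40 CPM (SD, n = 3) with DMSO against 33.8 ± 6.99 CPM (SD, n = 3) with GSK-126. Epha4 rose by 0.49 on the log2 scale (SE 0.13, edgeR adjusted p = 0.0163), with 0.68, 0.37 and 0.42 within pairs 1 to 3. Without replicate 1 the log2 fold change was 0.41 and the adjusted p was 0.152 (edgeR), and without replicate 2 they were 0.55 and 0.0335. DESeq2 with the block gave an adjusted p of 0.0663. The exons overlap no gene on the opposite strand.

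Epha1 was low, at 3.92, 6.90 and 4.17 CPM with DMSO against 8.03, 8.29 and 7.08 CPM with GSK-126, and its GSK-126 libraries lay above every DMSO library. Its log2 fold change of 0.67 was the highest of the members and had an SE of 0.24 and an edgeR adjusted p of 0.104, and 236 bp of its exons overlap Zyx on the opposite strand. Epha7, the EphA gene with the highest level per length (5.11 CPM per kilobase), was at 45.9, 76.6 and 42.9 CPM with DMSO against 41.6, 55.5 and 40.6 CPM with GSK-126, lower in each pair, with a log2 fold change of -0.24 (edgeR adjusted p = 0.194). These 2 genes thus lay in opposite directions, and neither was called. Epha3 had 17.8, 34.7 and 23.6 CPM with DMSO against 15.2, 21.1 and 22.4 CPM with GSK-126 (log2 fold change -0.34, edgeR adjusted p = 0.176). Epha8, whose gene lies 93430 bp from Ephb2 on chromosome 4, had 19.4, 23.7 and 24.2 CPM with DMSO against 19.5, 19.3 and 14 CPM with GSK-126 (log2 fold change -0.35, edgeR adjusted p = 0.202). Both had an unadjusted p under 0.05 and were not called, and the log2 fold change of Epha3 was -0.14 without replicate 2 and that of Epha8 -0.14 without replicate 3. That of Epha7 was -0.11 without replicate 2. Epha2, Epha5 and Epha10, the last a receptor without kinase activity, had log2 fold changes of 0.34, 0.14 and -0.19. All 14 Eph receptors together, with the untested Epha6, gave 419.5, 639.2 and 476.7 CPM with DMSO against 422.9, 516.5 and 421.9 CPM with GSK-126, which was lower in pairs 2 and 3 only.

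Netrin-G2 and netrin-G1 are held on the cell surface by a lipid anchor and bind the synaptic adhesion proteins NGL-2 and NGL-1 in place of Dcc or Unc5. Ntng2 (ENSMUSG00000035513.19, GRCm38 chr2:29194541-29253005, minus strand) had 23.2, 17.6 and 21.6 CPM in DMSO replicates 1 to 3 and 28.1, 39.9 and 25.2 CPM in the GSK-126 replicates. Every GSK-126 library lay above every DMSO library, with the widest gap in replicate 2. The means were 20.8 ± 2.86 CPM (SD, n = 3) with DMSO against 31.1 ± 7.74 CPM (SD, n = 3) with GSK-126. Ntng2 rose by 0.56 on the log2 scale (SE 0.16, edgeR adjusted p = 0.0341), and pairs 1 to 3 gave 0.28, 1.18 and 0.23. Without replicate 2 the log2 fold change was 0.26 with an adjusted p of 0.399 (edgeR), and DESeq2 with the block gave 0.108. Of its exons, 558 bp are shared with 6530402F18Rik on the same strand.

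Ntng1 lay the other way, at 3.46, 14.3 and 3.74 CPM with DMSO against 1.90, 7.11 and 3.21 CPM with GSK-126. It was lower with GSK-126 in all 3 pairs and highest in replicate 2 of both groups, and its log2 fold change of -0.74, the lowest of the members, did not pass the test (SE 0.27, edgeR adjusted p = 0.104). Their summed level was 26.7, 31.9 and 25.3 CPM with DMSO against 30.0, 47.0 and 28.5 CPM with GSK-126, higher in every pair.

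**Figure D2:**
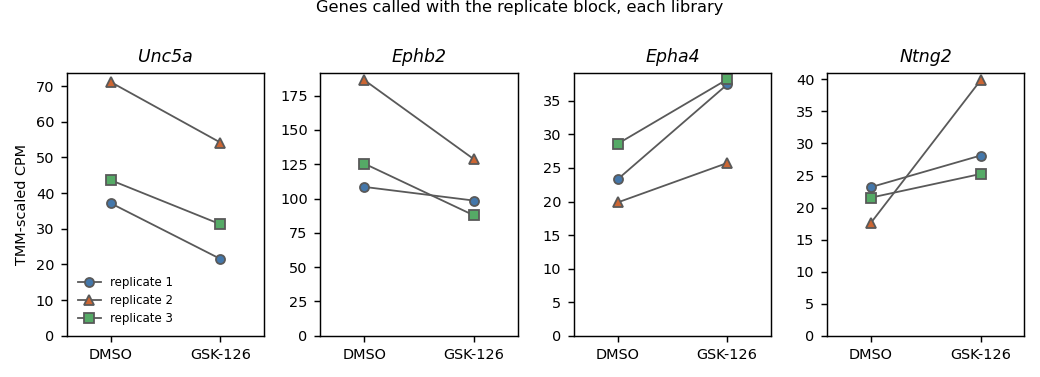
TMM-scaled CPM of Unc5a, Ephb2, Epha4 and Ntng2 in each library, with lines joining DMSO and GSK-126 libraries of the same replicate number. The lines fell in all 3 pairs for Unc5a and Ephb2 and rose in all 3 for Epha4 and Ntng2, and the groups stood fully apart for Ntng2 alone of these 4 genes.

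The secreted netrins did not pass the test. Ntn1, which encodes netrin-1, had 60.8, 83.0 and 70.0 CPM with DMSO against 59.2, 58.2 and 54.9 CPM with GSK-126, so that every GSK-126 library lay below every DMSO library, narrowly in pair 1. Its log2 fold change was -0.30 (SE 0.10, edgeR adjusted p = 0.0738), and it was -0.42 with an adjusted p of 0.0341 without replicate 1 and -0.19 with 0.409 without replicate 2 (edgeR). Ntn4, a netrin of basement membranes and the one with the highest level per length (20.2 CPM per kilobase), had 61.7, 87.8 and 79.7 CPM with DMSO against 57.8, 95.5 and 71.9 CPM with GSK-126, with a log2 fold change of -0.038. Ntn3 had a log2 fold change of -0.017, shares exons with BC028777 on the opposite strand, and turned direction under other scalings.

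The ligands of Robo also did not pass the test, and the 2 tested Slits were fitted in opposite directions. Slit2 had 44.4, 72.4 and 69.8 CPM with DMSO against 64.9, 67.5 and 89.1 CPM with GSK-126, higher with GSK-126 in pairs 1 and 3 and lower in pair 2. Its log2 fold change was 0.26 (SE 0.11, edgeR adjusted p = 0.159), and it was 0.45 with an adjusted p of 0.0201 without replicate 2 and 0.14 with 0.646 without replicate 1 (edgeR). Slit3 had 29.3, 92.8 and 56.1 CPM with DMSO against 27.9, 64.0 and 51.3 CPM with GSK-126, lower in all 3 pairs, with a log2 fold change of -0.26 (SE 0.11, edgeR adjusted p = 0.161). Without replicate 2 it was -0.10. The levels of Slit3 varied more between replicate numbers than between treatments. The axonal receptors were nearly level, with 80.2, 130 and 110.8 CPM for Robo2 with DMSO and 88.6, 135.7 and 129.0 CPM with GSK-126 (log2 fold change 0.14, edgeR adjusted p = 0.319). Robo1 had 57.9, 49.3 and 48.8 CPM with DMSO against 56.7, 41.5 and 49.1 CPM with GSK-126 (log2 fold change -0.089, edgeR adjusted p = 0.669).

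No ephrin was called in edgeR, and 1 of the 8, Efnb2, had an unadjusted p under 0.05. Efnb2, the ephrin gene with the highest level per length (15.7 CPM per kilobase) and a transmembrane ligand of EphB receptors and Epha4, had 111.3, 132.0 and 108.0 CPM with DMSO against 95.1, 102.6 and 97.1 CPM with GSK-126. Every GSK-126 library lay below every DMSO library. The means were 117.1 ± 13.0 CPM (SD, n = 3) with DMSO against 98.3 ± 3.89 CPM (SD, n = 3) with GSK-126, and the log2 fold change was -0.25 (SE 0.081, edgeR adjusted p = 0.0626). Efnb1 and Efnb3 had log2 fold changes of 0.10 and 0.088. Of the ephrin-As, Efna5 had 14.4, 10.9 and 13.7 CPM with DMSO against 17.1, 15.3 and 15.2 CPM with GSK-126, all GSK-126 libraries above all DMSO libraries, and a log2 fold change of 0.29 (SE 0.16, edgeR adjusted p = 0.313). Efna2, the ephrin-A gene with the highest level per length (6.80 CPM per kilobase), had a log2 fold change of -0.18 (edgeR adjusted p = 0.587). Efna1 was low, at 3.92, 1.68 and 2.26 CPM with DMSO against 2.05, 0.862 and 2.27 CPM with GSK-126, with a log2 fold change of -0.62 (SE 0.42, edgeR adjusted p = 0.432), which ran from -0.94 without replicate 3 to -0.40 without replicate 1. Efna3 and Efna4, which neighbor each other 10424 bp apart on chromosome 3, had log2 fold changes of 0.13 and 0.35, and both overlap genes on the opposite strand. All 8 ephrins together summed to 238.8, 223.1 and 227.8 CPM with DMSO against 225.5, 219.3 and 204.2 CPM with GSK-126, lower in each pair. Efnb2 was the largest part of that sum in every library, so the sum does not describe the ephrins as a family. Of the 8 ephrins 5 were fitted higher and 3 lower, with a median log2 fold change of 0.092.

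Over all 35 tested members, the log2 fold changes ran from -0.74 to 0.67 with a median of -0.038, beside -0.0056 over all tested genes. An unadjusted p under 0.05 was found for 15 members, 5 higher and 10 lower with GSK-126. Of all 16729 tested genes 21.5% had one, 1578 higher and 2017 lower. The groups did not overlap for 5 members, beside 9.44% of all tested genes. These were Efna5, Epha1 and Ntng2, which were higher with GSK-126, and Efnb2 and Ntn1, which were lower. In 19 members all 3 pairs lay in the same direction, 9 higher and 10 lower, beside 42.3% of all tested genes. In 3 of the 4 called genes the groups overlapped, so those calls rest on the differences within pairs.

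**Figure D3:**
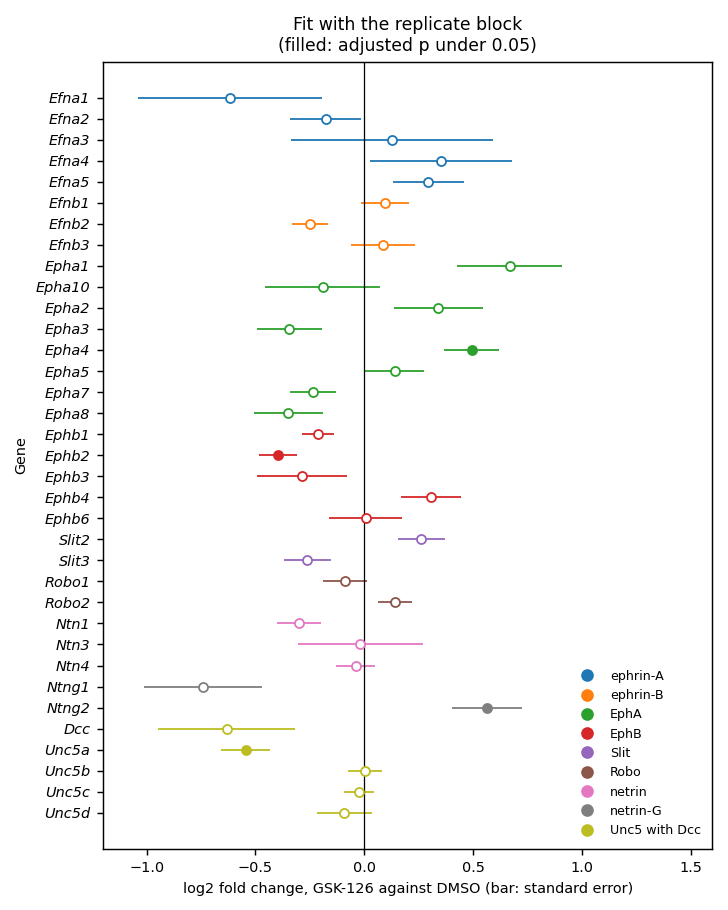
Log2 fold change of each tested member, GSK-126 against DMSO, from edgeR with the replicate block, with bars of 1 standard error and filled points for called genes. The values ran from -0.74 for Ntng1 to 0.67 for Epha1, and the called genes were Unc5a, Ephb2, Epha4 and Ntng2.

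There were 5 members too low to test. Robo3, needed by axons that cross the midline, had 1, 2 and 7 counts with DMSO and 10, 3 and 4 with GSK-126. Robo4, a receptor of the vascular endothelium, had 0, 4 and 0 counts with DMSO and 3, 0 and 6 with GSK-126. Slit1 had 2, 2 and 10 counts with DMSO and 10, 5 and 8 with GSK-126. The remaining genes were as low, Epha6 with 1, 2 and 5 counts with DMSO and 7, 4 and 0 with GSK-126, and Ntn5 with 7, 0 and 19 counts with DMSO and 10, 7 and 4 with GSK-126. These genes did not pass the count filter, so a difference in them was not tested.

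Several members are on the study's promoter lists from other assays, which are given as membership with no test. Efna5, Epha6, Ntng1, Robo1 and Slit2 are among the promoters that gain H3K27me3 between DIV1 and DIV7, and of the 4 tested none was called, 2 being fitted higher and 2 lower. Epha4, Epha6, Ntn1, Ntng1 and Slit2 are among those that lose H3K27me3 after GSK-126 given at DIV1, and of the 4 tested Epha4 rose while Slit2 was fitted higher and Ntn1 and Ntng1 lower without a call. The list of promoters that lose the mark over the same days was read in part, because its sheet was shortened. That part named Efnb2, Efnb3, Epha2, Epha8, Ephb1, Ephb3, Ephb4, Slit3, Unc5a and Unc5b, of which Unc5a fell and the other 9 were not called. The called shares of the tested members on these lists, in the order given, were 0%, 25% and 10%. Of all tested genes 8.44% were called, 3.35% higher and 5.09% lower.

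Signaling partners of these receptors were read from 3 lists written from general knowledge, with 53 genes that were all tested. The lists were chosen with earlier results of these data known, so their counts beside all tested genes are description only. Of these 7 fell and none rose in edgeR (13.2% called, beside 8.44% of all tested genes, 5.09% lower and 3.35% higher). At an unadjusted p under 0.05 there were 15 lower and 1 higher. Of all 16729 tested genes 2017 were lower and 1578 higher at that p, 21.5% in either direction. DESeq2 with the block called 5 lower and 0 higher. The median log2 fold change was -0.11, and 38 of 53 were fitted lower, beside 8509 of 16729 of all tested genes. Without replicate 2 the counts were 4 lower and 1 higher (edgeR). Without the replicate block no partner was called, with an adjusted p of 0.953 (edgeR) for each of the 7. The groups did not overlap for 5 of the 53, all lower with GSK-126, beside 9.44% of all tested genes.

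Among 20 partners of Ephs and ephrins, Tiam1, a Rac exchange factor that EphB receptors recruit in dendritic spines, was the one that fell. It was at 40.0, 76.0 and 44.5 CPM with DMSO against 28.8, 40.0 and 34.2 CPM with GSK-126, with every GSK-126 library below every DMSO library (log2 fold change -0.60, SE 0.12, edgeR adjusted p = 0.00236). Rgs3, whose product binds ephrin-Bs, was at 19.8 ± 5.47 CPM (SD, n = 3) with DMSO against 13.2 ± 1.09 CPM (SD, n = 3) with GSK-126 (edgeR adjusted p = 0.0549). The Rac exchange factor gene Vav2 was at 34.9 ± 4.81 CPM (SD, n = 3) with DMSO against 41.6 ± 3.01 CPM (SD, n = 3) with GSK-126 (edgeR adjusted p = 0.172). Neither was called. Among 13 partners of Slits and Robos, 3 fell. Pak1, a kinase downstream of Rac and Cdc42, was at 247.9, 476.0 and 286.5 CPM with DMSO against 164.6, 306.2 and 180.1 CPM with GSK-126, lower by nearly the same ratio in each pair (log2 fold change -0.63, SE 0.07, edgeR adjusted p = 6.88e-06). Srgap2, a GTPase-activating protein that binds Robos, had a log2 fold change of -0.49 (SE 0.084, edgeR adjusted p = 0.000674), and Flrt3 had -0.45 (SE 0.14, edgeR adjusted p = 0.0465). Flrt3 encodes an adhesion protein that binds Robo1 and Unc5 receptors.

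Among 20 partners of netrins and Unc5 receptors, 3 fell. Flrt1, a relative of Flrt3, was at 5.65, 13.3 and 5.47 CPM with DMSO against 4.25, 3.66 and 2.00 CPM with GSK-126, with no overlap between the groups (log2 fold change -1.23, SE 0.29, edgeR adjusted p = 0.0102). Adgrl3, which encodes a latrophilin that binds Flrt proteins, was at 101.2, 140.9 and 101.2 CPM with DMSO against 81.3, 95.4 and 80.9 CPM with GSK-126, also without overlap (log2 fold change -0.40, SE 0.084, edgeR adjusted p = 0.00386), and 1582 bp of its exons overlap Gm16054 on the opposite strand. Ablim1, an actin-binding protein, was at 259.7 ± 58.7 CPM (SD, n = 3) with DMSO against 208.0 ± 43.8 CPM (SD, n = 3) with GSK-126 (log2 fold change -0.32, edgeR adjusted p = 0.00723). All 3 genes were lower with GSK-126 in each of the 3 pairs. The groups of Ablim1 overlapped, as did those of Pak1, Srgap2 and Flrt3.

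**Figure D4:**
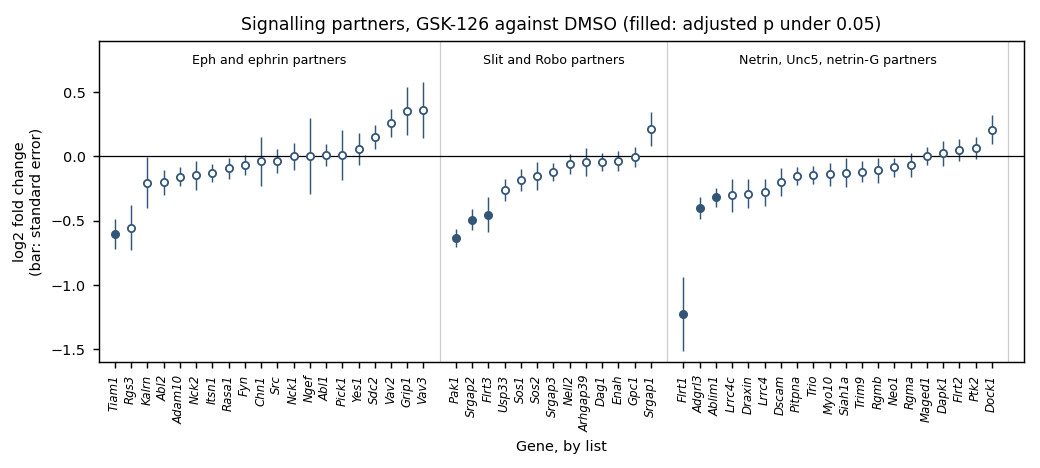
Log2 fold change of the 53 partner genes, GSK-126 against DMSO, from edgeR with the replicate block, by list, with bars of 1 standard error and filled points for called genes. Most points lay below 0, with 38 lower and 15 higher, and the 7 called genes were all lower.

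Markers of the cell types that such a culture can hold were read beside the members, since in bulk RNA fewer cells of a type and less RNA per cell cannot be told apart. The culture carried CGN markers, and 3 of 8 fell (Neurod1, Zic1 and Rbfox3) and 1 rose (Tubb3), with summed levels of 4138, 6112 and 4807 CPM with DMSO against 3398, 5177 and 3896 CPM with GSK-126. Of 5 progenitor markers Ccnd2 and Barhl1 rose, the sum went from 390.1, 353.1 and 541.5 CPM to 535.0, 440.4 and 633.0 CPM, and the defining markers Atoh1 and Gli1 were too low to test. Of 6 markers of GABAergic interneurons and Purkinje cells Gad1, Gad2 and Slc32a1 fell, and the sum went from 217.6, 194.9 and 226.9 CPM to 182.7, 159.4 and 150.0 CPM. The others were not called, with Pvalb and Calb1 fitted higher (log2 fold changes 0.51 and 0.45) and Pcp2 lower (-1.10). Of 8 fibroblast and mural markers Acta2, Pdgfrb and Col1a2 rose, with sums of 7497 to 10080 CPM with DMSO against 8583 to 10940 CPM with GSK-126. None of 6 astroglial markers was called in edgeR (3 at an unadjusted p under 0.05), and their sum ran from 2109 to 6759 CPM with DMSO against 2018 to 7137 CPM with GSK-126, lowest in replicate 2 of both groups. Mbp rose among 6 oligodendrocyte markers and C1qa among 6 microglial markers, with sums of 415.3 to 728.7 CPM and 149.1 to 320.4 CPM with DMSO against 475.2 to 739.3 CPM and 204.6 to 372.5 CPM with GSK-126. Of 6 endothelial markers none was called (1 at an unadjusted p under 0.05), the sum stayed between 54.8 and 91.3 CPM in all libraries, and Cldn5 was at 0 counts in 3 of 6 libraries. In every library the fibroblast and mural sum was above the CGN sum, though these sums are not scaled to exon length and depend on the genes listed. Per kilobase of exon, over all libraries, Col1a1 stood at 477 CPM and Gfap at 446 CPM, beside 247 CPM for Zic1, the highest CGN marker. The levels of the members are thus those of a mixed culture and cannot be assigned to CGNs. The part of these cell types in the changes of Unc5a, Ephb2, Epha4 and Ntng2 was not tested.

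**Figure D5:**
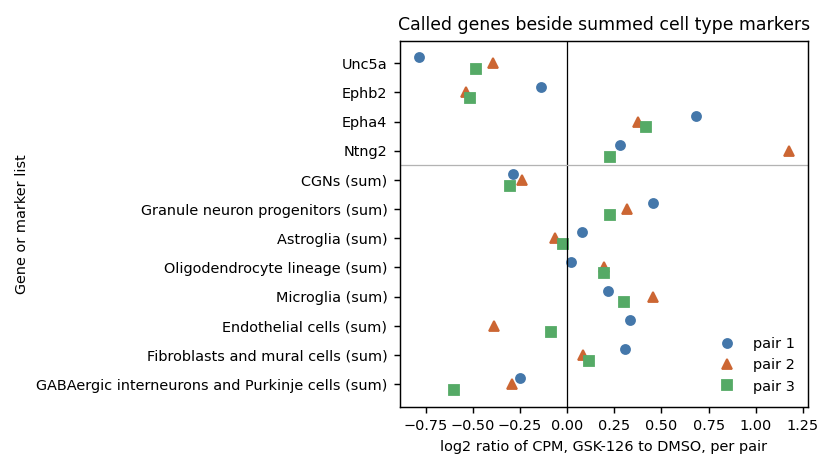
Log2 ratio of CPM, GSK-126 to DMSO, in each of the 3 pairs for the 4 called genes and for the summed CPM of each marker list. The CGN sum and the GABAergic and Purkinje sum lay below 0 in all pairs, as did Unc5a and Ephb2, and the progenitor, oligodendrocyte, microglial, and fibroblast and mural sums lay above 0 in all pairs, as did Epha4 and Ntng2.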

How the data were processed

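RNA of CGN cultures was sequenced from 3 libraries with DMSO and 3 with GSK-126, grouped by the labels. The authors trimmed reads with Trimmomatic 0.38, aligned them to mm10 with STAR 2.7.2b and assigned them to exons with HTSeq. The authors deposited the raw counts of each gene, with no normalization. The strand setting was not given in the sources used here. Lines that name no gene held 58.7% to 60.7% of the reads listed and were left out. The 55341 symbols are the unique symbols of GENCODE M21, which gave identifiers, exon lengths and overlaps. The closest pair of libraries had a chi-square of 9.01 for each degree of freedom, so none was a duplicate.

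Counts were tested in R 4.3.3 with edgeR 4.0.16 (TMM, filterByExpr, quasi-likelihood test, two-sided) with the replicate number as a block, and called at a Benjamini-Hochberg adjusted p under 0.05 over 16729 genes. The numbers pair the libraries: log2 CPM deviations from the group means correlated across genes at 0.56, 0.63 and 0.49 between libraries of 1 number, and at 0.0064 or less otherwise. The labels give only the shared numbers. The paper states no block. The biological coefficient of variation was 9.74% with the block and 24.0% without it. Alternatives were no block, DESeq2 1.42.0, other scalings and filters, a threshold of 0.01, and each replicate number left out with both its libraries. The script was tested on simulated data.

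The members and lists were chosen with earlier results of these data known. The genes named are the called members, in each family the uncalled member with the highest level per length, members with an unadjusted p under 0.05, members on the study's promoter lists, members with a log2 fold change over 0.5 in size, and the 3 partners of each list with the smallest p. Promoter windows are from RefSeq.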

Additional observations from a re-analysis of the deposited data

How the results depend on the processing

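Of 338 values of the members under the alternatives, 306 kept their direction and their side of the threshold, 14 kept the direction and lost the call, 2 gained one and 16 turned direction, and 10 had no adjusted p in DESeq2 and were left out. Without the replicate block edgeR called 0 members, 0 partners and 0 of all genes in either direction, and DESeq2 without it called 0 members, 0 partners, 19 genes higher and 2 lower. DESeq2 with the block called 0 members higher and 2 lower, and 351 genes higher and 600 lower. At an adjusted p under 0.01 there were 0 members higher and 2 lower, and 242 genes higher and 474 lower. With a replicate left out, 1 to 2 members were called higher and 1 to 2 lower, 0 to 1 partners higher and 4 to 9 lower, and 337 to 558 genes higher and 496 to 719 lower. The fewest genes in both directions came without replicate 2. Upper-quartile factors called 727 genes higher and 698 lower and total counts 714 and 707, beside 561 and 851 with TMM, and called 2 members in each direction as TMM did. With upper-quartile factors and total counts the log2 fold change of Ntn3 was 0.016 and 0.014, and that of Unc5c was 0.010 with both. With a replicate left out the direction turned for 11 members that no fit called, with log2 fold changes of -0.39 to 0.77 for Efna3, -0.028 to 0.21 for Efnb1, -0.17 to 0.28 for Efnb3, -0.39 to 0.067 for Epha10, -0.54 to 0.13 for Ephb3, -0.069 to 0.062 for Ephb6, -0.041 to 0.012 for Ntn3, -0.12 to 0.018 for Ntn4, -0.10 to 0.064 for Unc5b, -0.041 to 0.023 for Unc5c and -0.15 to 0.025 for Unc5d. The cause was not tested. Members under 10 CPM had the widest errors.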
